A study of Mus musculus with 4 samples.

Results

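TNF receptor superfamily transcripts were examined in macrophages grown from mouse bone marrow and cocultured with MC38, a colon cancer line of the same species. The genes are 10 of the receptors that myeloid cells express, namely Tnfrsf1a, Tnfrsf1b, Tnfrsf9, Tnfrsf12a, Tnfrsf14, Tnfrsf21, Tnfrsf26, Fas, Cd40 and Ltbr. They were chosen by symbol from the 21878 genes listed, with earlier results of these data known. All 10 passed the filter on low counts that left 12494 genes for testing. There were 2 libraries of wildtype macrophages (WT) and 2 of macrophages from anti-Act1 mice, which the study describes as a macrophage-specific Act1 knockdown. All mice were C57BL/6 and, per the labels, 8 weeks old, and every library came from macrophages cocultured with MC38 for 48 h per the labels, although a legend of the study gives a shorter time. How the knockdown is driven is not given in the sources used here, and while the methods call the 2 libraries of each group biological replicates, separate mice are not stated, so that p-values measure only the spread between these libraries.

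Receptors of this family bind trimeric ligands of the TNF superfamily through cysteine-rich extracellular repeats. Receptors with a death domain, such as TNFR1 and Fas, can assemble complexes that lead to NF-κB activity or to cell death, whereas receptors without one, such as TNFR2, 4-1BB and CD40, recruit TRAF proteins directly and signal to NF-κB and MAP kinases. Macrophages are a main source of TNF and respond to it through both TNF receptors. Act1, encoded by Traf3ip2, is the adaptor of IL-17 receptors and has also been described as a regulator of CD40 and BAFF receptor signalling.

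Total counts were 64199075 and 75062945 in the WT libraries and 61926229 and 55435063 in the anti-Act1-labelled libraries, and a count of 0 therefore allowed a level of up to 3 counts, or 0.0395 to 0.0549 CPM (counts per library total, with TMM factors applied), which covers counting error only. Traf3ip2 stood at 6.98 and 7.54 CPM in the WT libraries and at 9.63 and 7.84 CPM in the anti-Act1-labelled libraries, that is a difference of 0.27 in log2 (SE 0.12, adjusted p = 0.117), so that the targeted transcript was not lower. Without anti-Act1 replicate 2 the difference was 0.41 with an adjusted p of 0.0343, and without anti-Act1 replicate 1 it was 0.11 with an adjusted p of 0.723. Groups are therefore named here as labelled. The Y-linked gene Ddx3y had 5741 and 7360 counts in the WT libraries and 0 in both anti-Act1-labelled libraries, and the genotype and the presence of Y-linked transcripts cannot be told apart as sources of any difference between the groups. All 10 macrophage markers had a mean of at least 1 CPM, with a summed level of 25349 to 26308 CPM in WT and 26032 to 26878 CPM in the anti-Act1-labelled libraries, most of it from Lyz2. Of these markers Mrc1 (log2 fold change -0.63), Mertk (-0.40) and Itgam (-0.31) were lower, Cd14 (0.17) was higher and the other 6 did not pass the test described below, so that the groups also differed in macrophage markers. None of the 8 epithelial tumour markers reached 1 CPM, with a summed level of 0.343 to 0.464 CPM in WT and 0.128 to 0.389 CPM in the anti-Act1-labelled libraries, and Krt8, Krt18, Krt20 and Cldn4 were at 0 in all libraries. Of the other marker lists, 1 of 6 fibroblast (Pdgfrb), 2 of 7 neutrophil, 3 of 7 dendritic cell, 1 of 6 T cell (Cd4) and 1 of 5 B cell markers (Cd79b) reached 1 CPM. Their summed levels in WT and in the anti-Act1-labelled libraries were 1.33 to 1.58 and 1.89 to 2.19 CPM for fibroblast, 5.86 to 6.07 and 6.41 to 7.19 CPM for neutrophil and 5.64 to 7.21 and 5.12 to 6.12 CPM for dendritic cell markers. They were 25.77 to 26.002 and 28.4 to 31.7 CPM for T cell and 2.91 to 3.18 and 3.69 to 4.03 CPM for B cell markers. The fibroblast, neutrophil, T cell and B cell sums were thus slightly higher in the anti-Act1-labelled libraries, but of the neutrophil markers above 1 CPM S100a8 was higher (log2 fold change 0.66) and S100a9 lower (-1.42). Most of the T cell sum came from Cd4, and Cd3d, Cd3e, Cd3g and Cd8a had at most 6 counts in any library. Lck had 28 and 45 counts in WT and 63 and 38 counts in the anti-Act1-labelled libraries. It was higher in both of the latter in CPM but did not pass the test described below (log2 fold change 0.74, adjusted p = 0.188). The part of these marker differences in the results was not tested.

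RefSeq promoter windows (GRCm38.p6) were found for 8 of the 10 receptor genes, 9 windows in all because Tnfrsf9 has 2 starts. Each window runs from 250 bases before a start site to 50 bases after it. The bases upstream of the start are shown for Tnfrsf9, which had the largest difference between the groups among the 10 receptors. They are also shown for Fas, which had the largest difference among the death domain receptors of the 10. The pair of TNF receptors, which moved apart, is shown as well. Capitals mark every match on either strand to motifs of inflammatory transcription factors, namely the κB motif of NF-κB, the GAS motif TTCNNNGAA of STAT factors, the ISRE motif GAAANNGAAA and the AP-1 motif TGANTCA, or to TATAAA. The windows lie at chr4:150927749-150927998 (plus strand, the downstream start of Tnfrsf9), chr19:34290409-34290658 (plus strand, Fas), chr4:145246871-145247120 (minus strand, Tnfrsf1b) and chr6:125349473-125349722 (plus strand, Tnfrsf1a), each given 5′ to 3′.
Tnfrsf9: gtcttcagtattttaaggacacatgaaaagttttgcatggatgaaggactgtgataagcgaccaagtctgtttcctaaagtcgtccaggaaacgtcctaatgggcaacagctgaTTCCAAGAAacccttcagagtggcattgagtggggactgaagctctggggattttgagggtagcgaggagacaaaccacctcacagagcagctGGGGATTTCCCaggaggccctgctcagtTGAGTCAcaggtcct
Fas: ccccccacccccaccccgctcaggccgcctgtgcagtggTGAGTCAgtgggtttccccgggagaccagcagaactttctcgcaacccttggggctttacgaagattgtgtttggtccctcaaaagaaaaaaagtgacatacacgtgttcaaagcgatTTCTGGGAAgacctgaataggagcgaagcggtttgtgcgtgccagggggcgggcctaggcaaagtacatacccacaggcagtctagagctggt
Tnfrsf1b: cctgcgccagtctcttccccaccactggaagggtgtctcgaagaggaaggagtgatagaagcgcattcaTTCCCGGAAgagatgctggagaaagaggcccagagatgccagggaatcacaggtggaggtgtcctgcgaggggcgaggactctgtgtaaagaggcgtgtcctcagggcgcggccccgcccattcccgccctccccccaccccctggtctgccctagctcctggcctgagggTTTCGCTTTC
Tnfrsf1a: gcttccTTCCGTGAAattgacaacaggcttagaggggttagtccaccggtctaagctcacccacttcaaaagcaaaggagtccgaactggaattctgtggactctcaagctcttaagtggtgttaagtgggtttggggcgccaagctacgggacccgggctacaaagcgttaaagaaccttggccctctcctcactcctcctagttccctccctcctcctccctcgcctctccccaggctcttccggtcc

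The downstream start of Tnfrsf9 held 2 overlapping κB matches at positions -43 to -33 from the start, a GAS match at -136 to -128 and an AP-1 match at -15 to -9. Fas held a GAS match at -93 to -85 and an AP-1 match at -211 to -205. Tnfrsf1b held a GAS match at -181 to -173 and an ISRE match at -10 to -1, and Tnfrsf1a held a GAS match at -244 to -236. Among the windows not shown, Tnfrsf14 held an ISRE match at -64 to -55, and Ltbr, Tnfrsf12a, Tnfrsf21 and the upstream start of Tnfrsf9 held none of the 5 motifs. Of the 9 windows, 1 held a κB match, 4 a GAS match, 2 an ISRE match, 2 an AP-1 match and 0 a TATAAA match. Among all 32851 promoter windows of the same length, 4.51% held the κB motif, 8.3% GAS, 3.44% ISRE, 7.81% AP-1 and 13.6% TATAAA. These are matches of letters and describe the sequence only.

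The receptor transcripts spanned a wide range of levels. On the per-length scale of the deposited FPKM (counts scaled to gene length and to the library total), Tnfrsf1b, which encodes TNFR2, was the most abundant, at 176 and 180 FPKM in the WT libraries and 201 and 204 FPKM in the anti-Act1-labelled libraries. Tnfrsf1a, which encodes TNFR1, came next at 77.5 and 79.6 FPKM in WT and 72.3 and 74.5 FPKM in the anti-Act1-labelled libraries. Cd40 was the lowest of the 10 in every library, from 1.44 to 2.62 FPKM. The most abundant receptor thus exceeded the least abundant one 122-fold and 107-fold in the WT libraries and 77.4-fold and 77.9-fold in the anti-Act1-labelled libraries.

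In both groups the order by mean FPKM ran from Tnfrsf1b through Tnfrsf1a, Ltbr, Tnfrsf14, Tnfrsf26 and Tnfrsf21 to Fas. Below Fas, Tnfrsf12a (5.64 ± 0.179 FPKM, SD, n = 2) stood above Tnfrsf9 (3.57 ± 0.0743, SD, n = 2) in WT, and Tnfrsf9 (7.30 ± 0.732, SD, n = 2) stood above Tnfrsf12a (6.28 ± 0.499, SD, n = 2) in the anti-Act1-labelled libraries. Every gap between neighbours in this order exceeded the sum of their SDs, except that between Tnfrsf9 and Tnfrsf12a in the anti-Act1-labelled libraries, where the gap was 1.02 FPKM and the sum of the SDs was 1.23. The 10 receptors summed to 382 and 393 FPKM in WT and to 424 and 429 FPKM in the anti-Act1-labelled libraries. Tnfrsf1b alone made up 46.0% and 45.7% of that sum in WT and 47.5% and 47.6% in the anti-Act1-labelled libraries.

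**Figure D1:**
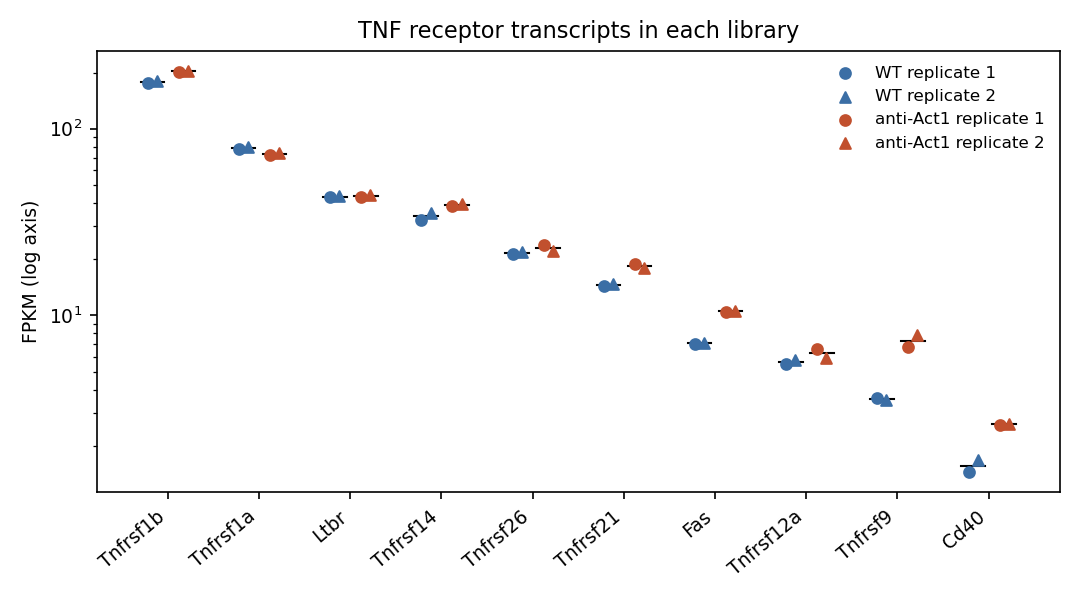
FPKM of each receptor gene in each of the 4 libraries, on a log axis and ordered by the WT mean. Circles and triangles are replicates 1 and 2, blue is WT, red is anti-Act1, and black lines are the means of 2 libraries. Tnfrsf9, Cd40, Fas and Tnfrsf21 in the anti-Act1-labelled libraries stand clear above WT, while Tnfrsf1a is slightly lower.

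To find which receptor transcripts differed between the groups, all 12494 genes were tested with edgeR's quasi-likelihood test. Transcripts of 6 of the 10 receptors were higher in the anti-Act1-labelled libraries at an adjusted p under 0.05 and 0 were lower, where 20.7% of all genes tested passed, 10.9% higher and 9.76% lower. The 6 were Tnfrsf9, Cd40, Fas, Tnfrsf21, Tnfrsf14 and Tnfrsf1b, and their log2 fold changes ran from 0.22 to 1.06. The median log2 fold change was 0.22 over the 10 receptors and -0.005 over all genes tested. The groups did not overlap in CPM for any of the 10 genes, with 9 higher in both anti-Act1-labelled libraries and Tnfrsf1a lower, where 57.1% of all genes tested did not overlap, made up of 28.4% that were higher and 28.7% that were lower. In these bulk samples more cells expressing a receptor and more RNA per cell cannot be told apart.

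**Figure D2:**
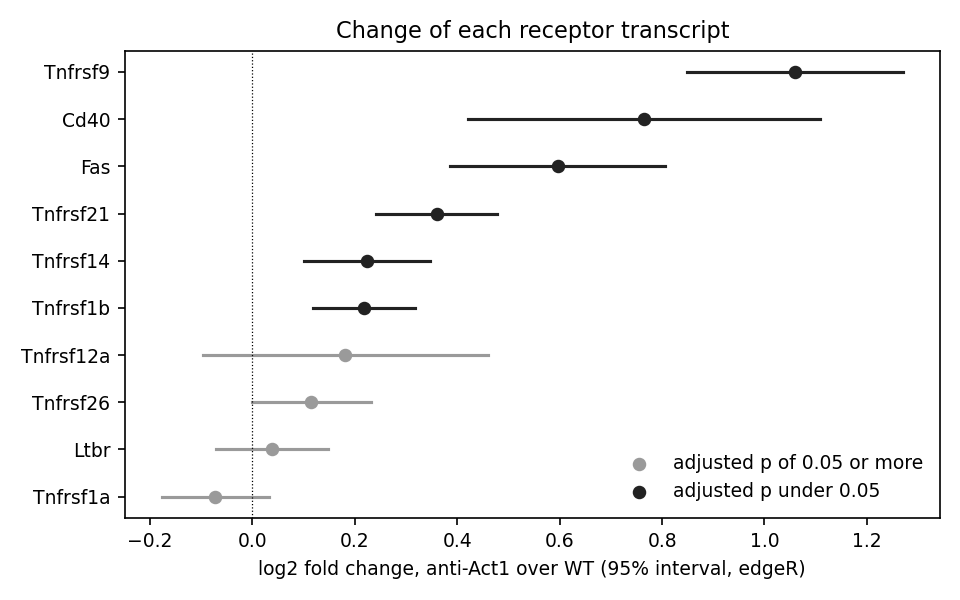
Log2 fold change of each receptor gene, anti-Act1 over WT, from edgeR, with its 95% interval. Black marks the 6 genes with an adjusted p under 0.05, all above 0, from 0.22 for Tnfrsf1b to 1.06 for Tnfrsf9. The 4 genes in grey have intervals that include 0.

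Of the 6 receptors that recruit TRAF proteins and lack a death domain, 4 rose and 2 did not pass the test. Tnfrsf9 on chromosome 4, which encodes the costimulatory receptor 4-1BB, showed the largest difference of the 10. It had 488 and 554 counts in the WT libraries and 883 and 911 in the anti-Act1-labelled libraries, or 7.55 and 7.30 CPM against 14.3 and 16.7 CPM. Both anti-Act1-labelled libraries lay far above both WT libraries, and the level was 2.08-fold higher (95% interval 1.80 to 2.41, log2 fold change 1.06, SE 0.10, adjusted p = 2.82e-11). Its promoter window at the downstream start, printed above, was the only 1 of the 9 with κB matches. The counts are per gene and do not tell which of its 2 starts was used.

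Cd40 on chromosome 2 encodes the receptor through which T cells with CD40 ligand activate macrophages. It had 153 and 208 counts in WT and 266 and 240 counts in the anti-Act1-labelled libraries, or 2.37 and 2.74 CPM against 4.31 and 4.40 CPM. The groups were separated by a wide gap at a low level, and the level was 1.70-fold higher (95% interval 1.34 to 2.16, log2 fold change 0.76, SE 0.17, adjusted p = 0.000616). Its interval was the widest of the 6, since its counts were the lowest of the 10 receptors. Limma on log2 of FPKM plus 1, which compresses low values, gave a log2 difference of 0.50. Cd40 transcripts shared stretches of at least 100 bases at 95% identity or more with those of 2 other genes, the longest of 109 bases. The counts of Cd40 are uncertain to that extent.

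Tnfrsf1b on chromosome 4 had the highest counts and a small difference. It stood at 857 and 872 CPM in WT and at 992 and 1019 CPM in the anti-Act1-labelled libraries. The spread within each group was small beside the step between them, and the level was 1.16-fold higher (95% interval 1.09 to 1.25, log2 fold change 0.22, SE 0.05, adjusted p = 0.000776). With the receptor already the most abundant, this step was the largest of the 10 in FPKM, from a mean of 178 to a mean of 203.

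Tnfrsf14, also on chromosome 4, encodes HVEM, which binds LIGHT and the lymphocyte receptors BTLA and CD160. It stood at 45.5 and 48.9 CPM in WT and at 54.1 and 56.3 CPM in the anti-Act1-labelled libraries. The level was 1.17-fold higher (log2 fold change 0.22, SE 0.06, adjusted p = 0.00571), but the 2 WT libraries differed among themselves by more than the anti-Act1-labelled libraries did. The call was lost without WT replicate 1 (log2 fold change 0.17, adjusted p = 0.0692) and without anti-Act1 replicate 2 (0.20, adjusted p = 0.114). Stretches of at least 100 bases at 95% identity or more were shared between its transcripts and those of 40 other genes, the longest of 162 bases and none of them with another TNF receptor gene, so that its counts are uncertain to that extent.

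The remaining TRAF-binding receptors were Ltbr, the lymphotoxin β receptor that binds lymphotoxin and LIGHT, and Tnfrsf12a, the TWEAK receptor Fn14. Ltbr on chromosome 6 stood at 89.0 and 90.1 CPM in WT and at 90.4 and 93.5 CPM in the anti-Act1-labelled libraries. Its fold was 1.03 with a 95% interval of 0.951 to 1.11 (adjusted p = 0.698). Tnfrsf12a on chromosome 17 stood at 5.51 and 5.76 FPKM in WT and at 6.63 and 5.93 FPKM in the anti-Act1-labelled libraries. Its fold of 1.13 had a wide interval of 0.935 to 1.38 (adjusted p = 0.401), since it had only 300 to 395 counts per library.

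Of the 3 death domain receptors, Fas and Tnfrsf21 rose and Tnfrsf1a did not pass the test. Fas on chromosome 19, the receptor of Fas ligand that can start apoptosis, had 531 and 633 counts in WT and 765 and 691 counts in the anti-Act1-labelled libraries. In CPM these were 8.22 and 8.34 against 12.4 and 12.7. Replicates lay close together in both groups, and the level was 1.51-fold higher (95% interval 1.31 to 1.75, log2 fold change 0.60, SE 0.10, adjusted p = 1.67e-05).

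Tnfrsf21 on chromosome 17 encodes death receptor 6, which is known from neurons and from T and B lymphocytes. It stood at 52.0 and 53.1 CPM in WT and at 68.9 and 65.9 CPM in the anti-Act1-labelled libraries. The groups were well separated, and the level was 1.28-fold higher (95% interval 1.18 to 1.39, log2 fold change 0.36, SE 0.06, adjusted p = 4.83e-06). Its promoter window held none of the 5 motifs.

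Tnfrsf1a on chromosome 6, which encodes the TNF receptor found on nearly all cells, was the only 1 of the 10 with lower values in the anti-Act1-labelled libraries. It stood at 166 and 170 CPM in WT and at 156 and 163 CPM in the anti-Act1-labelled libraries. The difference did not pass the test, with a log2 fold change of -0.07 (SE 0.05, adjusted p = 0.364) and a 95% interval of -0.18 to 0.03. Its log2 fold change and that of Tnfrsf1b had intervals that did not overlap. The ratio of Tnfrsf1b to Tnfrsf1a in FPKM was 2.26 in both WT libraries and 2.79 and 2.74 in the anti-Act1-labelled libraries. Each library's ratio is taken within that library, so that no scaling between libraries enters it, and it shows unequal change of the pair rather than the change of either.

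Tnfrsf26 on chromosome 7, a mouse receptor gene for which no signalling domain is named here, stood at 63.3 and 64.1 CPM in WT and at 71.2 and 66.8 CPM in the anti-Act1-labelled libraries. The fold of 1.08 had a 95% interval of 0.999 to 1.17 and did not pass the test (adjusted p = 0.166). Of the exon bases of Tnfrsf26, 3.33% overlap an antisense gene, E230032D23Rik, and whether the counting used strand is not given in the sources used here. Its relatives Tnfrsf22 and Tnfrsf23 did not pass either. Tnfrsf22 stood at 3.50 and 4.06 CPM in WT against 4.57 and 4.89 CPM (log2 fold change 0.32, adjusted p = 0.145), and Tnfrsf23 at 45.8 and 46.5 CPM against 48.4 and 52.7 CPM (log2 fold change 0.13, adjusted p = 0.143).

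**Figure D3:**
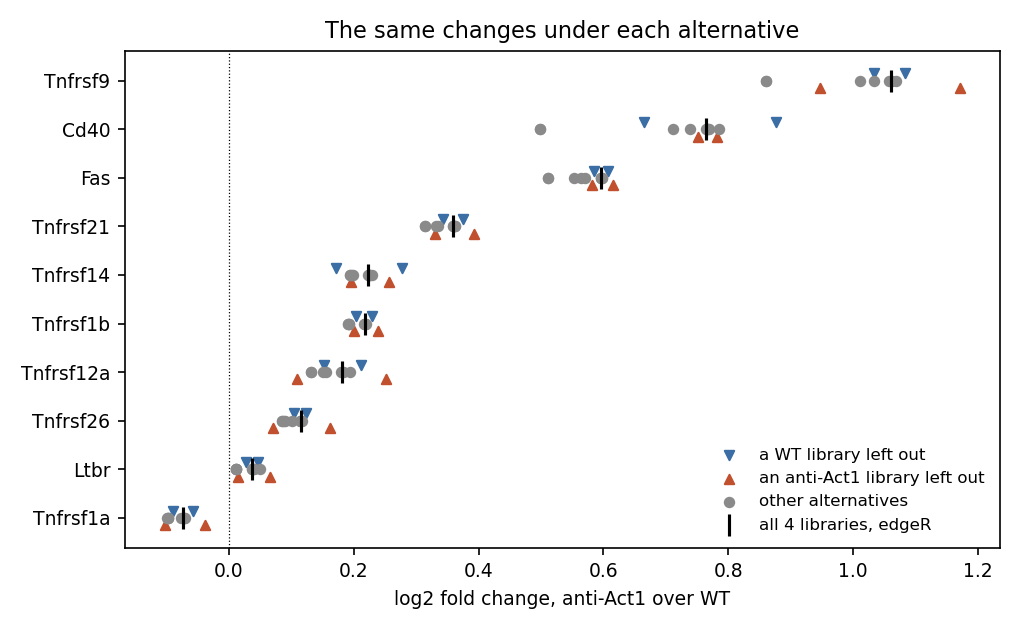
Log2 fold change of each receptor gene, anti-Act1 over WT, with all 4 libraries (black bar), with a library left out (triangles) and under the other alternatives (grey circles). The direction stayed the same for all 10 genes under all 14 alternatives, and Tnfrsf9 ranged from 0.86 to 1.17. For Cd40 the lowest value, 0.50, came from limma on log2 of FPKM plus 1.

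Of 18 other receptor genes listed, 8 were too low to be tested, 2 passed the test and 8 did not, with a median log2 fold change of 0.06 over the 10 tested. The 2 of 10 are close to the 20.7% of all genes tested that passed. Tnfrsf11a, which encodes RANK, the receptor through which RANKL drives osteoclast formation from macrophage precursors, stood at 64.3 and 69.8 CPM in WT and at 51.4 and 50.7 CPM in the anti-Act1-labelled libraries. It fell by 0.39 on the log2 scale (SE 0.06, adjusted p = 1.17e-06), opposite in direction to the 6 receptors that rose. Tnfrsf10b, which encodes the TRAIL receptor of the mouse and was named after its values were seen, had 25 and 20 counts in WT and 60 and 42 counts in the anti-Act1-labelled libraries (log2 fold change 1.43, SE 0.43, adjusted p = 0.0113). Its call was lost without anti-Act1 replicate 1 (adjusted p = 0.183) and without WT replicate 2 (adjusted p = 0.137), and also under DESeq2 (adjusted p = 0.0596). On the scale of log2 of FPKM plus 1, which compresses such low values, its difference was 0.20.

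Of 10 ligand genes of these receptors listed, 7 were tested, 2 rose and 1 fell, beside 10.9% of all genes tested that rose and 9.76% that fell. Their median log2 fold change was 0.13. Tnf, the ligand of TNFR1 and TNFR2, stood at 7.18 and 6.26 CPM in WT and at 14.1 and 13.1 CPM in the anti-Act1-labelled libraries, and rose 2.02-fold (log2 fold change 1.02, SE 0.11, adjusted p = 3.29e-10). Tnfsf14, which encodes LIGHT, the ligand of HVEM and of the lymphotoxin β receptor, had 412 and 471 counts in WT and 177 and 162 counts in the anti-Act1-labelled libraries. It fell by 1.11 on the log2 scale (SE 0.15, adjusted p = 9.81e-08), while its receptor gene Tnfrsf14 was 1.17-fold higher and Ltbr did not pass the test.

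Tnfsf9, which encodes 4-1BB ligand, stood at 12.6 and 14.0 FPKM in WT and at 15.3 and 17.98 FPKM in the anti-Act1-labelled libraries. It was 1.27-fold higher (log2 fold change 0.35, SE 0.10, adjusted p = 0.00558) beside the 2.08-fold of its receptor Tnfrsf9, but the call was lost without anti-Act1 replicate 2 (adjusted p = 0.244) and without WT replicate 1 (adjusted p = 0.0519). Tnfsf12, which encodes TWEAK, the ligand of Fn14, stood at 36.5 and 37.4 CPM against 32.4 and 33.2 CPM and did not pass the test (log2 fold change -0.17, adjusted p = 0.0553). Fasl, which encodes the ligand of Fas, had 8 and 4 counts in WT and 0 in both anti-Act1-labelled libraries, and Cd40lg, which encodes the ligand of CD40, had at most 1 count in any library, so that neither was tested. The lymphotoxin genes Lta (8 to 25 counts per library) and Ltb (24 to 35 counts) were tested and did not pass.

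Of 34 signalling partners that act below the receptors, 8 rose, 3 fell and 23 did not pass the test, beside 10.9% of all genes tested that rose and 9.76% that fell. The 3 that fell are close to that share, and the median log2 fold change was 0.03. Among the 8 were Tnfaip3, which encodes the deubiquitinase A20, at 73.5 and 72.9 CPM in WT against 113 and 114 CPM (log2 fold change 0.63, SE 0.05, adjusted p = 5.31e-13), and Birc3, which encodes the ubiquitin ligase cIAP2, at 85.5 and 82.4 CPM against 119 and 117 CPM (0.49, SE 0.05, adjusted p = 6.11e-10). Both are known targets of NF-κB, and for both genes the groups lay far apart beside the spread within them.

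Of the 5 TRAF adaptor genes listed, Traf1, Traf6 and Traf3 rose, while Traf2 (log2 fold change 0.10, adjusted p = 0.463) and Traf5 (-0.09, adjusted p = 0.68) did not pass the test. Traf1 stood at 11.6 and 10.7 CPM in WT against 16.5 and 17.9 CPM (log2 fold change 0.62, SE 0.09, adjusted p = 7.52e-07). Traf6, which links CD40 and IL-17 receptors to TAK1, stood at 77.3 and 82.5 CPM against 109 and 106 CPM (0.43, SE 0.06, adjusted p = 3.36e-08). Traf3, an inhibitor of noncanonical NF-κB signalling from CD40 and the lymphotoxin β receptor, stood at 44.0 and 40.2 CPM against 52.0 and 51.0 CPM (0.29, SE 0.06, adjusted p = 0.000398). All 3 lay higher in both anti-Act1-labelled libraries than in either WT library, and Traf3 lost its call in limma without a filter (adjusted p = 0.118).

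Some of the partners are known for signalling to cell death, a grouping made after their values were seen. Of these, Map3k5, which encodes the kinase ASK1, fell from 23.5 and 21.6 CPM to 15.1 and 16.9 CPM (log2 fold change -0.49, SE 0.08, adjusted p = 6.87e-06). Smaller differences were seen for Mlkl, the effector of necroptosis (0.28, adjusted p = 0.00484), for Tradd, the first adaptor at TNFR1 (0.21, adjusted p = 0.0409), and for the kinase Ripk1 (-0.17, adjusted p = 0.0128). Fadd, Casp8, Cflar and Ripk3 did not pass, with adjusted p of 0.132, 0.194, 0.317 and 0.0542. Of the 14 alternatives, Mlkl kept its call in 11, Tradd in 6 and Ripk1 in 12. Mlkl had an adjusted p of 0.111 without WT replicate 2 and 0.0732 without anti-Act1 replicate 1. Tradd had 0.108 and 0.226 without anti-Act1 replicates 1 and 2 and 0.252 without WT replicate 2, and Ripk1 had 0.145 and 0.112 without anti-Act1 replicates 1 and 2. Without anti-Act1 replicate 1 the partners passing the test numbered 7 in place of 11.

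Receptors of this family are released from the cell surface by proteases. Of 6 genes of this process, 2 rose and 4 did not pass the test, beside 10.9% of all genes tested that rose, and their median log2 fold change was -0.07. Adam17, which encodes the protease that sheds TNF and both TNF receptors, stood at 338 and 339 CPM in WT and at 391 and 400 CPM in the anti-Act1-labelled libraries (log2 fold change 0.22, SE 0.05, adjusted p = 0.00065). Rhbdf2, which encodes the iRhom2 protein that brings ADAM17 to the surface, stood at 57.4 and 57.0 CPM against 61.4 and 68.1 CPM (0.18, SE 0.06, adjusted p = 0.0265). The call of Rhbdf2 was lost in 7 of the 14 alternatives, DESeq2 and every limma setting among them, and had an adjusted p of 0.0643 without WT replicate 2 and 0.489 without anti-Act1 replicate 2.

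**Figure D4:**
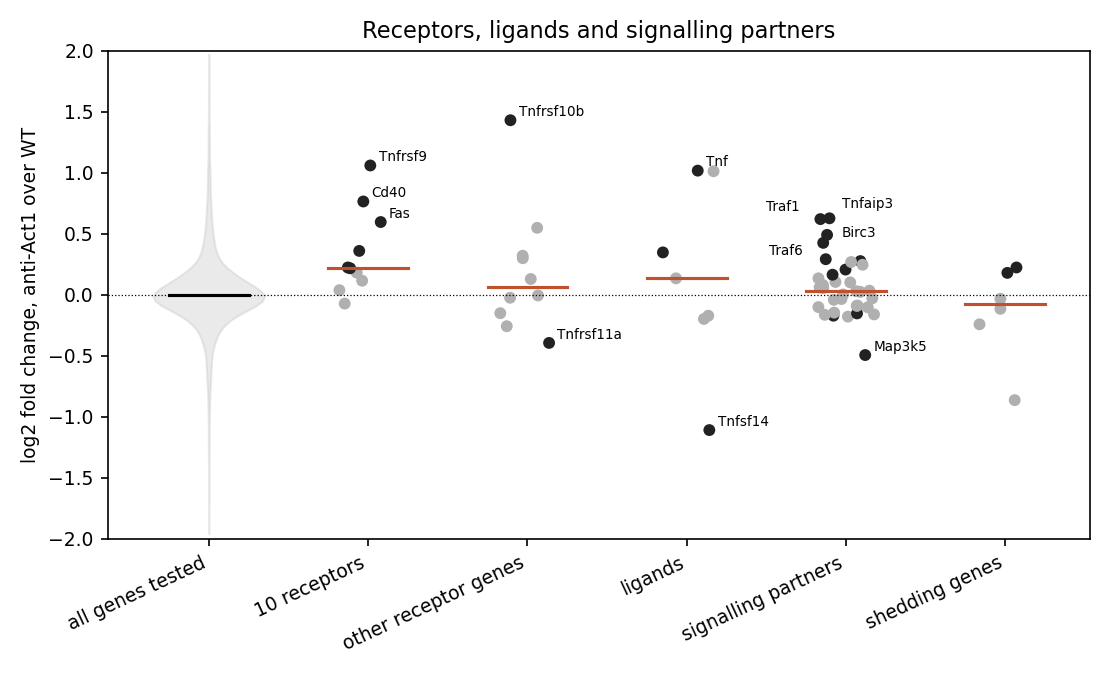
Log2 fold change, anti-Act1 over WT, of the 10 receptors, the other receptor genes, the ligands, the signalling partners and the shedding genes beside all 12494 genes tested. Each point is a gene, black with an adjusted p under 0.05 and grey otherwise, and lines are medians (0.22, 0.06, 0.13, 0.03 and -0.07 for the lists and -0.005 for all genes). The grey shape shows all genes within -2 to 2, which leaves out 63 of them, and Tnfrsf9 and Tnf lie highest among the black points apart from Tnfrsf10b.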

How the data were processed

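The series holds 4 RNA sequencing libraries, 2 WT and 2 anti-Act1, of bone-marrow-derived macrophages after coculture with MC38. Per the study's methods, the authors filtered the reads for adapters, undetermined bases and quality and aligned 150 bp read pairs with TopHat. They deposited whole-number counts of reads on each gene. They also deposited FPKM values, that is these counts scaled to gene length and library total. The submitters' processing notes name Bowtie 0.12.2, HTSeq 0.6.1 and the builds mm8 and mm10, with no role given. The study's methods name a different version of Bowtie, used to index the reference genome. The library kit and the counting are not stated to use strand. Coordinates and promoter sequences are those of RefSeq (GRCm38.p6) and were used for the sequences only.

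Counts were tested with edgeR 4.0.16 (R 4.3.3) with the quasi-likelihood F test (two-sided), after filterByExpr and TMM normalization and with condition as the only term, using Benjamini-Hochberg adjustment over 12494 genes and a call at an adjusted p under 0.05. The study's methods name DESeq2. Standard errors and 95% intervals come from the same fit. An exact permutation test of 2 libraries against 2 cannot go below p = 0.333. CPM and FPKM are given for every library, and FPKM only is used between genes. Each library had 55435063 to 75062945 counts, and the replicates of each group differed by more than sampling noise. The edgeR test with and without the replicate block, DESeq2 and limma with 0.1 added were checked on simulated counts. The other alternatives were not.

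The receptors and the lists of other receptors, ligands, signalling partners and shedding genes were chosen with earlier results of these data known. From each other list, genes with an adjusted p under 0.05 and a mean of at least 1 CPM could be named, at most 10 a list, and Traf3ip2 always. The other genes named from these lists and the marker genes were named after their values were seen. Alternatives were DESeq2 1.42.0, other normalization, no filter, a minimum of 10 counts, the replicate number as a block, limma 3.58.1 on log2 of the deposited FPKM with 1 or 0.1 added (FPKM of at least 1 in 2 libraries, or no filter) and each library left out. Counts thinned to the smallest total were added after the data were seen. Near-identical stretches were sought with blastn 2.17.0.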

Additional observations from a re-analysis of the deposited data

How the results depend on the processing

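With 2 libraries a group, the values of 9 of the 10 receptors kept their direction and their side of the threshold under all 14 alternatives. Tnfrsf14 lost its call in limma on log2 of FPKM plus 1 without a filter (log2 fold change 0.19, adjusted p = 0.0899), and leaving out a library moved its log2 fold change between 0.17 and 0.28. The receptors that passed numbered 5 under that limma setting, 5 or 6 with a library left out and 6 otherwise. Over all genes 1092 passed under that limma setting, and 1671 to 2543 with a library left out. The other receptor genes that passed numbered 1 under DESeq2 and under limma with either pseudocount and the FPKM filter. In those limma settings Tnfrsf10b, at 0.084 to 0.305 FPKM, was below the filter and was not tested. The signalling partners that passed numbered 5 under limma without a filter and 7 to 10 with a library left out. The shedding genes that passed numbered 1 under DESeq2, without composition normalization and under limma in its 3 settings, and 1 to 3 with a library left out. Of 21 results of single genes from these lists, 10 kept their call or lack of one throughout. No result changed direction. With the replicate number as a block, 6 receptors and 2406 genes passed, and Ikbkb lost its call (adjusted p = 0.0638). Ikbkb, a kinase of NF-κB signalling named after its values were seen, was lower in the main test (log2 fold change -0.15, adjusted p = 0.0325). It kept that call in 8 of the 14 alternatives. The deviations of same-numbered libraries correlated at -0.0345 over 12494 genes, and the numbers are taken as names only. The cause of these shifts was not tested. Cd40 and Tnfrsf12a, with 153 to 395 counts a library, are the receptors whose precision depth limits most.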
